A study of Mus musculus with 29 samples.

Results

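A small set of autosomal CpGs in these methylation libraries was read far more often than the rest. They were selected on depth alone, as the CpGs with 500 or more reads in 15 or more of the 29 files. The rule picked 307 of the 2828076 autosomal CpGs that had a read in any file, and no CpG on chromosomes X and Y met it. Of the 307 CpGs, 278 had at least 5 reads in all 29 files and 196 had 500 or more reads in all 29. Depth chose these CpGs, so their depth is given as a description with no test, while their methylation was not used to choose them.

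Reduced representation bisulfite sequencing (RRBS) counts methylated and unmethylated reads at CpGs, mostly in CpG-rich DNA, after unmethylated cytosines have been converted. Repeated DNA is present in many copies that an assembly holds as few or as one, so the reads of all copies can be placed at the same few positions. A methylation level at such a position is then an average over copies as well as over cells. Genes for ribosomal RNA are the textbook case: they lie in long tandem arrays, are transcribed by RNA polymerase I, and silent copies carry more DNA methylation than active ones. Satellite repeats near centromeres are usually heavily methylated in mouse cells.

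The libraries came mostly from 3 lines of male mouse embryonic stem cells (ESCs), called J-34, J-35 and J-37. Their medium was serum plus LIF (S/L) or an inhibitor medium with LIF, named 2i/L, a2i/L or PKCi/L. Of these media, 2i/L is the usual name for Mek1/2 plus Gsk3 inhibition, and what a2i/L and PKCi/L contain is not stated by the labels. Cells were taken at passage 10 (p10, 6 passages in the medium) or passage 20 (p20, 16 passages). Cultures moved from 2i/L back to S/L were taken 3 passages later (p23) or 10 passages later (p30). There were 3 libraries, one per line, for p23 and for S/L and 2i/L at each of p10 and p20. The a2i/L p20 and PKCi/L p20 groups had 2 libraries each, from J-34 and J-35, and p30 had 2, titled J-35 and J-37. The other labels of the first p30 library name J-34, so its line is uncertain. J-34 was also treated with the single compound CHIR or PD for 6 passages, which in this field are short names of a Gsk3 and a Mek1/2 inhibitor, and a2i/L p10 (J-34) and PKCi/L p10 (J-35) had 1 library each. The Mek1/2 double knockout library came from induced pluripotent stem cells that were made by reprogramming Mek1 fl/fl;Mek2-/- fibroblasts with Oct4, Klf4, Sox2 and c-Myc, picked as clones, treated with Cre and kept in S/L on irradiated fibroblast feeders. The 2 libraries of 2i/L keratinocytes are labelled male and the 1 library of wild-type keratinocytes female, both as cultured neonatal cells. How the 2i/L keratinocytes were derived from 2i/L culture is not given by the labels, and the source field of all 3 keratinocyte libraries reads ESC. Cell-type markers were not checked here, because the files hold no expression values.

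The libraries held 8359802 to 22433006 reads over CpGs. Among the autosomal CpGs with at least 5 reads in every file, those outside the chosen set had median depths of 8 to 22 reads per library.

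Within 1000 bp of each other, the 307 CpGs formed 14 clusters. The largest was a block at chr17:39979959-39985654 (mm9, here and below from the first to the last chosen CpG). It held 247 of the 307 CpGs, or 80.5%, in 5696 bp, and 367 CpGs of this span had a read in some file. Its median depth was 1809 reads, against 13.5 reads at the CpGs within 500 bp on either side. In the mm9 assembly this stretch is known to carry the assembled copy of the ribosomal RNA transcription unit (Rn45s). That identity is background knowledge, since no mm9 annotation was used here.

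The deepest CpGs lay elsewhere, in a pair of clusters on chromosome 2. The first held 2 CpGs at chr2:98502951-98502961 and the second 3 CpGs at chr2:98506419-98506660. Their median depths over the 29 libraries were 109934 reads at position 98506660, 90726 at 98502951, 90696 at 98502961, 16692 at 98506419 and 16621 at 98506429. These were the 5 deepest CpGs of the whole set. The stretch is widely known as a place where mouse sequencing reads of satellite-like sequence pile up, again as background.

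The remaining 55 CpGs fell into 11 clusters of 2 to 10 CpGs, none longer than 283 bp. They lay at chr11:108873012-108873222 (10 CpGs, median depth 2239 reads), chr5:147072588-147072870 (8, 2263.5 reads), chr3:5860668-5860701 (8, 2247 reads), chr13:44965001-44965023 (5, 2394 reads), chr11:105928130-105928149 (5, 903 reads), chr11:3093351-3093486 (5, 537 reads), chr16:57391705-57391735 (4, 568 reads) and chr17:36368220-36368239 (3, 1680 reads). Clusters at chr9:4260403-4260418 (3, 767 reads), chr8:125951888-125951974 (2, 536.5 reads) and chr12:82881111-82881114 (2, 530 reads) complete the list. Within clusters, 191 of the 293 steps between neighbouring CpGs, or 65.2%, were 10 bp or shorter, with a median of 7 bp. Genes, exons and introns were not assigned to these clusters.

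Few CpGs lay at the threshold itself. There were 5 CpGs with 500 reads in exactly 15 files. They were positions 39980429 and 39980154 on chromosome 17, 3093460 and 3093486 on chromosome 11, and 125951974 on chromosome 8, with median depths of 501 to 651 reads. Just outside, with 14 files, was 1 CpG at position 39985179 on chromosome 17, inside the block, with a median depth of 495 reads. Each count from 10 to 14 files held 1 to 10 CpGs, but 46 CpGs had 500 reads in 8 files and 59 in 9. The part of the depth patterns given below in these counts was not tested.

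Together the 307 CpGs took 3.63% to 7.43% of the autosomal CpG reads of a library. The chromosome 17 block took 2.04% in the wild-type keratinocytes, the lowest of all libraries, and up to 4.29% in PKCi/L p20. The 5 chromosome 2 CpGs took 0.818% to 3.56%, and the 11 smaller clusters 0.341% to 0.680%. The chromosome 2 share therefore varied most in relative terms.

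**Figure D1:**
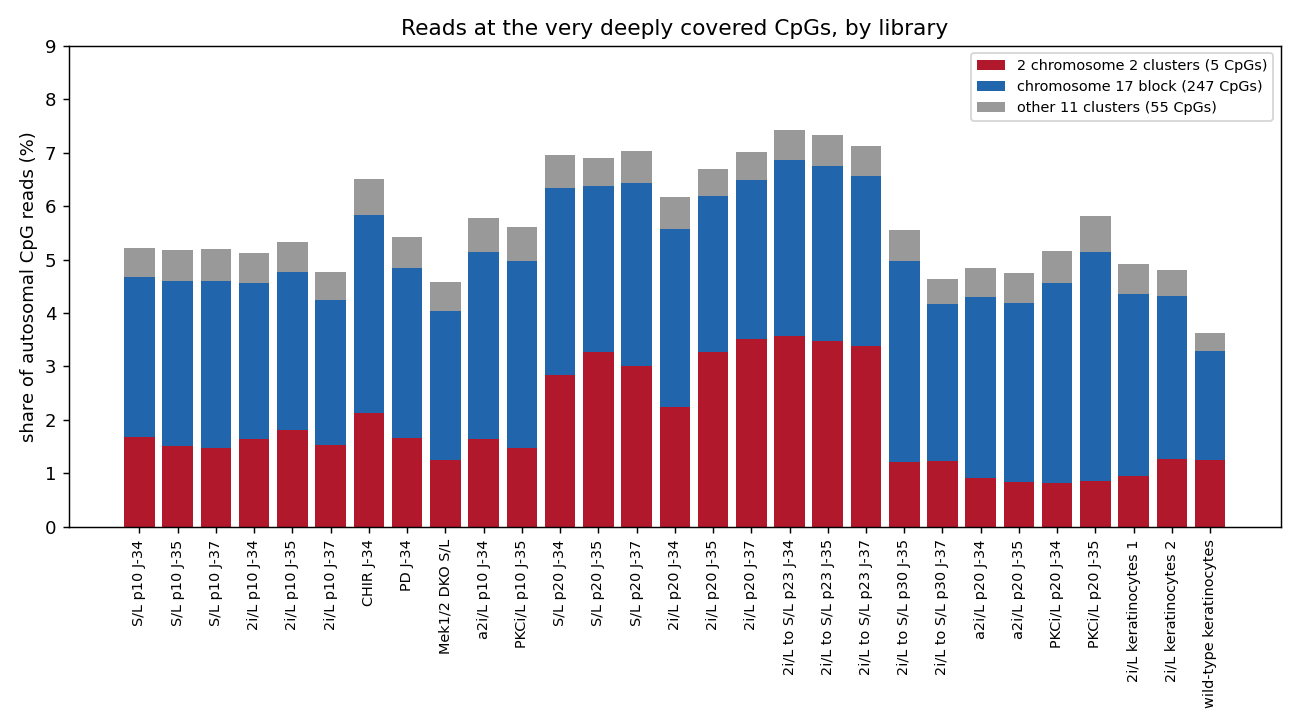
Share of autosomal CpG reads (%, bars from 0) at the chosen CpGs in each of the 29 libraries, stacked by class. The chromosome 2 part (bottom) averages 3.47% in p23 and 3.03% in S/L p20, against 0.837% in PKCi/L p20 and 0.878% in a2i/L p20.

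Depth at the chromosome 2 CpGs fell into 3 patterns, each belonging to whole groups of libraries. In the 11 libraries of the p10 groups, CHIR, PD and the double knockout, CpG 98502951 had 62124 to 128456 reads and CpG 98506660 only 2158 to 4155. The 9 libraries of p23 and of S/L and 2i/L at p20 had 113268 to 197233 and 138743 to 241640 reads at these CpGs. The 9 libraries of a2i/L p20, PKCi/L p20, p30 and all keratinocytes had 5704 to 10011 and 85563 to 159860 reads. In the last set CpG 98502961, only 10 bp from the first, had 7 to 25 reads, against 62106 to 172539 in the other 20 libraries. The labels name no sequencing run or batch, and every group fell whole into 1 pattern. Whatever sets these depths cannot be told apart from the groups in comparisons of a2i/L p20, PKCi/L p20, p30 or keratinocytes with S/L p20. The cluster on chromosome 16 had at most a median of 2 reads per CpG in the first set of libraries and 430 or more in the others. The cluster at chr11:105928130-105928149 had medians of 38 to 311 reads in the first set and 402 to 2165 elsewhere.

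Levels of methylation split the clusters into a high and a low class. The chromosome 2 and chromosome 8 clusters were mostly methylated in S/L p10 and S/L p20, the cluster at chr11:3093351-3093486 lay in between, and the chromosome 17 block and most small clusters were mostly unmethylated. S/L p10 libraries had 89.3% ± 0.409 (SD, n = 3) methylated reads at the chromosome 2 CpGs and 12.6% ± 2.82 (SD, n = 3) in the block. The mean over all chosen CpGs was 15.6% ± 2.68 (SD, n = 3) in S/L p10, while the share of their reads that was methylated was 35.7% ± 0.545 (SD, n = 3). The 5 chromosome 2 CpGs enter the second summary with all their reads.

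**Figure D2:**
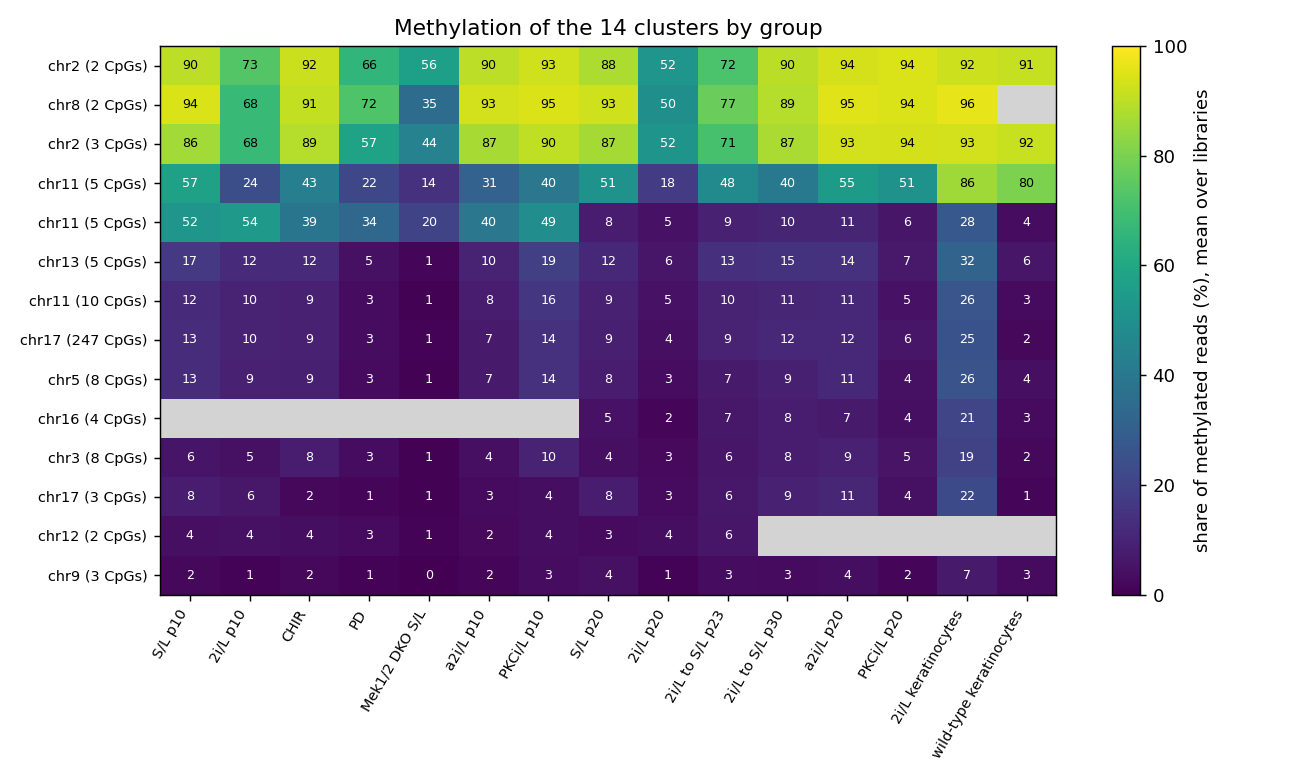
Share of methylated reads (%, mean over the libraries of a group) in each of the 14 clusters (rows, by chromosome and number of CpGs) and 15 groups (columns). Grey marks groups with a library under 100 reads in that cluster. The chromosome 2 and 8 rows are lower in 2i/L p20 and in the double knockout than in S/L p10 and S/L p20.

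At the chromosome 2 CpGs, 2i/L cells held less methylation than S/L cells, and the loss was larger at p20 than at p10. The 3 S/L p10 libraries lay between 88.9% and 89.7%, and the 2i/L p10 libraries between 72.0% and 72.6%. At p20 the S/L libraries held 86.9% (J-34), 87.2% (J-35) and 87.3% (J-37), and those in 2i/L 62.8%, 52.2% and 40.5% in the same order of lines. Groups did not overlap at either passage, and the 3 lines in 2i/L p20 differed far more than those in 2i/L p10. After the return to S/L, p23 libraries held 75.1%, 72.9% and 66.2% (J-34, J-35, J-37), still below every S/L library. The p30 libraries held 88.7% and 86.1%, on either side of the S/L p20 values. These shares weigh the CpGs differently, since CpG 98502961 had only 10 to 11 reads in p30. At CpG 98506429 p30 had 84.5% and 78.9%, against at most 78.4% in S/L p20. CpG 98506419 had 93.2% and 91.1% against at most 90.2%. At CpGs 98502951 and 98506660 p30 lay on either side of S/L p20.

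Single compounds and the knockout, with 1 library each, are given with a Wilson 95% interval that covers counting error only. It treats the counts of all CpGs as independent, although CpGs of one cluster share reads. All Wilson intervals here are thus likely too narrow even for counting error. At the chromosome 2 CpGs the level was 91.3% (91.2 to 91.4) with CHIR, 64.5% (64.4 to 64.7) with PD and 54.4% (54.1 to 54.6) in the double knockout. The a2i/L p10 library had 89.7% (89.6 to 89.8) and the PKCi/L p10 library 92.4% (92.3 to 92.5). Against the S/L p10 libraries (88.9% to 89.7%), a2i/L p10 was at the upper end and PKCi/L p10 above each. The PD and double knockout values lay below each S/L library, and the CHIR value did not. These are descriptions of single libraries.

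The highest chromosome 2 levels came from a2i/L p20 (93.3% and 93.1%), PKCi/L p20 (93.6% and 93.7%) and the 2i/L keratinocytes (93.1% and 93.2%). Wild-type keratinocytes had 91.6% (Wilson 95% interval 91.4 to 91.8). All of these libraries belong to the set with few reads at the first chromosome 2 cluster, and the part of this in the levels was not tested. The most direct view is at single CpGs that had 5141 reads or more in every library. CpG 98502951 stood at 90.5% ± 0.0932 for S/L p20 (SD, n = 3). It was higher with PKCi/L at p20 (94.4% ± 0.251, SD, n = 2) and with a2i/L at p20 (93.7% ± 0.0482, SD, n = 2). CpG 98506429, the least methylated of the 5 in S/L cells, had levels of 31.6% ± 12.3 with 2i/L at p20, 42.7% ± 6.60 at p23 and 77.9% ± 0.557 with S/L at p20 (SD, n = 3 each). The same CpG reached 91.3% ± 0.144 with PKCi/L and 88.8% ± 0.493 with a2i/L, both at p20 (SD, n = 2 each). Values therefore differed between these 2 CpGs, which lie in different clusters. At both, S/L p20 was below a2i/L p20, and a2i/L p20 below PKCi/L p20.

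**Figure D3:**
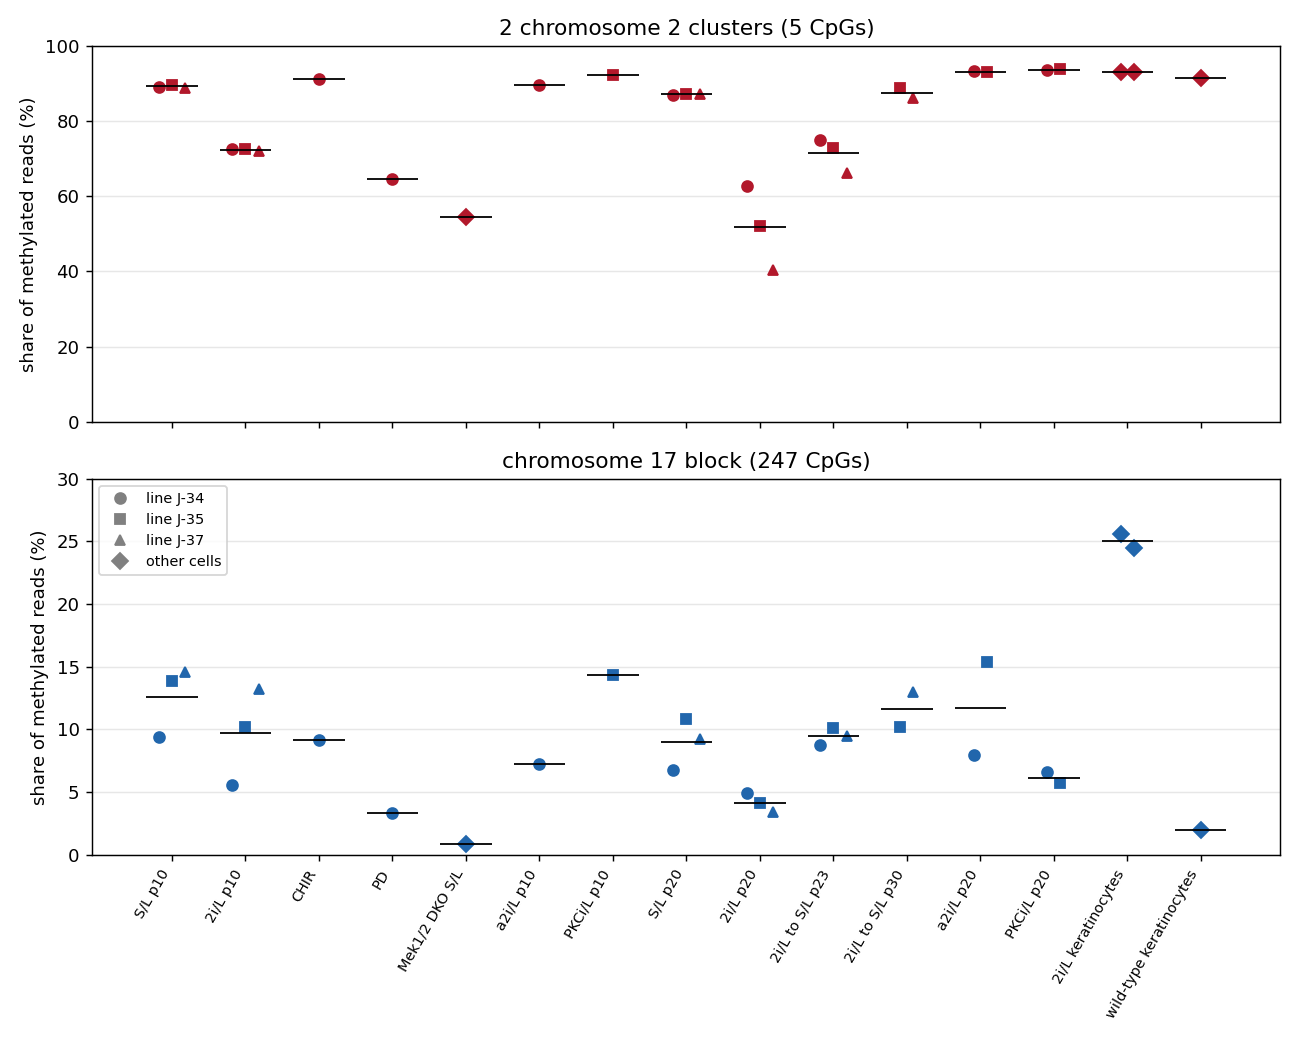
Share of methylated reads (%) at the 5 chromosome 2 CpGs (upper panel) and in the chromosome 17 block (lower panel, another scale) in each library, with the group mean as a line and the line of ESCs as the symbol. In 2i/L p20 the chromosome 2 values run from 40.5% to 62.8%, and the 2i/L keratinocytes lead the lower panel at 24.5% and 25.6%.

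In the chromosome 17 block, where most reads are unmethylated, levels ran from 0.839% in the double knockout to 25.6% in a 2i/L keratinocyte library. S/L p10 libraries held 9.37% (J-34), 13.8% (J-35) and 14.6% (J-37), and 2i/L p10 libraries 5.58%, 10.2% and 13.2% in that order. Within each line the 2i/L p10 value was the lower, but the groups overlapped. At p20 the S/L libraries held 6.75%, 10.9% and 9.26% and the 2i/L libraries 4.95%, 4.11% and 3.44%, with no overlap. In p23 they held 8.77%, 10.1% and 9.44%, within the range of S/L p20. The group means differed by -2.92 points at p10, near the spread between lines in S/L p10 (2.82 points SD), and by -4.79 points at p20, above that in S/L p20 (2.07 points SD).

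PD gave 3.34% (Wilson 95% interval 3.30 to 3.39), CHIR 9.15% (9.07 to 9.23), a2i/L p10 7.21% (7.15 to 7.27) and PKCi/L p10 14.3% (14.2 to 14.4). At p20, a2i/L libraries had 7.94% (J-34) and 15.4% (J-35), and PKCi/L libraries 6.61% and 5.70%. Within its line each a2i/L value was above S/L p20 and each PKCi/L value below it, for J-34 by only 0.136 points in PKCi/L. The p30 libraries held 10.2% and 13.0%.

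The keratinocytes of the 2 labels differed in the block. The 2i/L keratinocytes had 25.6% and 24.5% and the wild-type keratinocytes 1.97% (Wilson 95% interval 1.91 to 2.04). The wild-type group is 1 library and of the other labelled sex, so the difference has no replicate check, and origin and sex cannot be told apart. The mean level of the CpGs outside the set was close in these libraries, at 23.9% in both 2i/L keratinocyte libraries and 24.1% in the wild-type library. The 11 smaller clusters showed the same order, 28.2% ± 0.0998 (SD, n = 2) against 8.50% (8.18 to 8.84).

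Along the block, levels were compared in steps of 500 bp with at least 10 chosen CpGs, 9 steps in all. The first step was the highest in 13 of 15 groups, the exceptions being the keratinocytes of either kind. It had 18.5% in S/L p10, where the lowest step had 9.70%, and 14.4% in 2i/L p10, where the lowest had 6.86%. In PKCi/L p10 these values were 21.1% and 10.1%, and in the double knockout 1.66% and 0.535%. At p20 the steps were closer together, from 8.18% to 11.6% with S/L and from 3.08% to 5.49% with 2i/L. They ran from 18.7% to 27.4% in the 2i/L keratinocytes and from 1.56% to 2.20% in the wild-type keratinocytes.

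Single CpGs stood above the rest in 2 places, both picked after their values were seen. CpG 39980119, at 160 bp from the first CpG of the block, was the highest CpG of the block in S/L p10 with 60.2%, in PKCi/L p10 with 51.6%, in CHIR with 46.4%, in PD with 34.7% and in the double knockout with 24.9%. In 2i/L p10 the highest was CpG 39980131, at 172 bp, with 58.9%. Both CpGs lie in the first step of 500 bp, and their part in its level was not tested. In S/L p20 CpG 39980119 had 16.0%. Its lowest depth was 384 reads in S/L p10 and 1917 in S/L p20, and the part of depth in this difference was not tested. The other place holds the 4 CpGs that were highest in S/L p20, at 2586 to 2608 bp. Of these, CpG 39982551 had 24.8% ± 7.50 in S/L and 17.4% ± 2.24 in 2i/L, both at p20 (SD, n = 3 each), and 69.6% ± 2.18 (SD, n = 2) in the 2i/L keratinocytes. CpG 39982567 had 21.6% ± 6.70, 12.1% ± 0.895 and 59.7% ± 0.535 in the same 3 groups, and CpG 39982545 had 30.9% ± 7.44, 16.9% ± 1.13 and 38.8% ± 0.974. Over the other 243 CpGs of the block, group means ran from 1.47% to 16.0% in S/L p20 and from 12.8% to 43.5% in the 2i/L keratinocytes, so the last value of CpG 39982545 lies within their range. In S/L p10 the 4 CpGs had 26.9% to 30.1%, and 6 of the other 243 were above all of them.

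**Figure D4:**
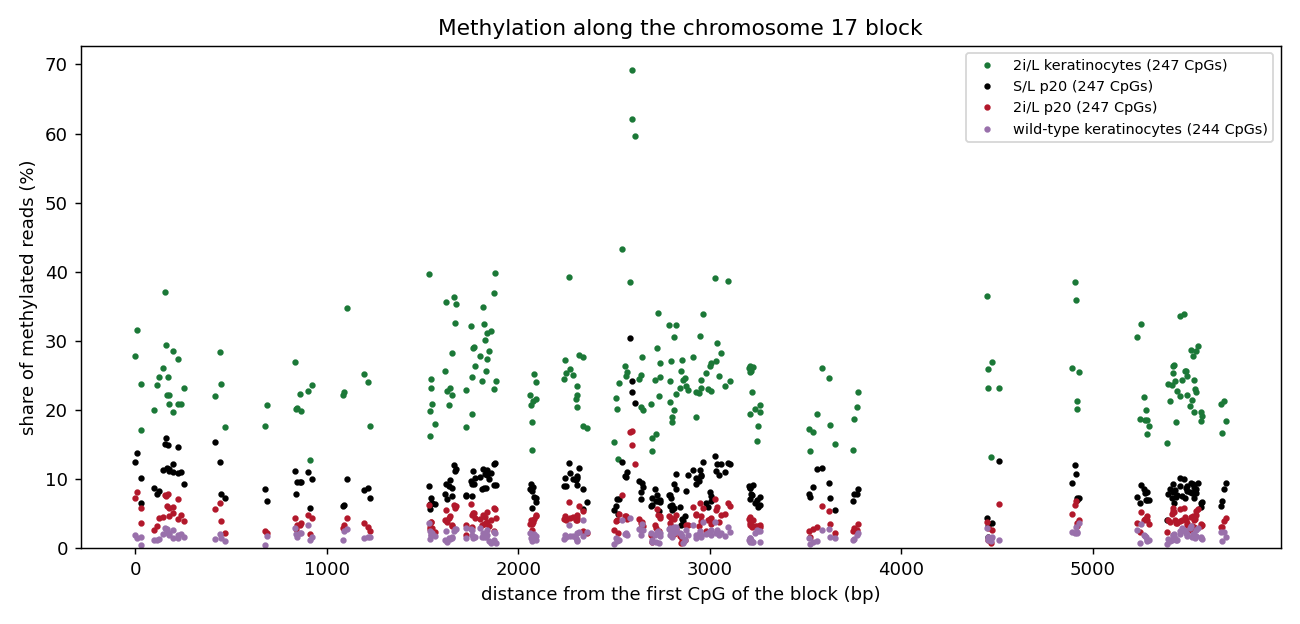
Share of methylated reads (%) at single CpGs along the chromosome 17 block against the distance from its first CpG (bp), in S/L p20, 2i/L p20, 2i/L keratinocytes and wild-type keratinocytes, for CpGs with 100 or more reads in each library of the group (244 in the wild-type keratinocytes, 247 in the others). The step ranges of the 4 groups do not overlap (S/L p20 8.18% to 11.6%, 2i/L p20 3.08% to 5.49%), and the highest points of the S/L p20 group lie 2586 to 2608 bp from its start.

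Some small clusters lay close to the level of the block, on other chromosomes too. The clusters at chr11:108873012-108873222 and chr5:147072588-147072870 lay within 5 points of the block's level in 29 of 29 libraries. The chromosome 13 cluster did so in 26 and the small chromosome 17 cluster in 25 of 29. The cluster at chr11:105928130-105928149 did so in 18 libraries. S/L libraries had 52.1% ± 8.0 there at p10 but 7.65% ± 1.81 at p20 (SD, n = 3 each), together with the difference in its depth given above, whose part in this was not tested.

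The cluster at chr8:125951888-125951974 was high in S/L and lower in 2i/L, as were the chromosome 2 CpGs. S/L p10 libraries held 94.0%, 94.7% and 94.0% (J-34, J-35, J-37) and 2i/L p10 67.0%, 68.5% and 68.3%. At p20 the S/L libraries held 92.6%, 93.2% and 92.2%, those in 2i/L 70.6%, 44.6% and 34.5%, and p23 81.1%, 76.7% and 74.2%. Groups in 2i/L lay below those in S/L without overlap, and p23 lay between them. The wild-type keratinocytes had a median of 1 read per CpG here and give no value.

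At chr11:3093351-3093486 2i/L cells were low at both passages. Its level was 57.1% ± 2.68 with S/L and 24.2% ± 1.44 with 2i/L at p10, then 50.9% ± 1.07 with S/L and 17.9% ± 4.06 with 2i/L at p20 (SD, n = 3 each). It was 47.9% ± 3.27 at p23 (SD, n = 3). Both kinds of keratinocytes were higher than any ESC group, with 85.9% ± 0.409 (SD, n = 2) and 80.4% in the single wild-type library. Here p23 approached S/L p20 more closely than it did on chromosomes 2 and 8. The p30 level was lower again, 40.4% ± 7.15 (SD, n = 2), with both libraries below each S/L p20 library. Low levels were not confined to 2i/L. The single libraries of CHIR (42.9%), a2i/L p10 (31.3%) and PKCi/L p10 (39.8%) also lay below each S/L p10 library. At p20, a2i/L had 54.7% ± 3.84 and PKCi/L 51.1% ± 2.79 (SD, n = 2 each).

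The level left in 2i/L can also be given as a ratio to S/L. The 2i/L p10 level was 81.1% of the S/L p10 level on chromosome 2, 76.8% in the block and 73.5% in the other 11 clusters. Over the shared autosomal CpGs outside the set it was 41.9%, there as a mean over CpGs and not as a share of reads. At p20 these figures were 59.5%, 46.5%, 49.96% and 38.2%. They are ratios of group means given as a description, without a test.

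Each CpG was then tested over all 506814 autosomal CpGs that had at least 5 reads in all 21 libraries of the 8 replicated ESC groups. The test was limma on log2((methylated reads + 1)/(unmethylated reads + 1)) with Benjamini-Hochberg adjustment. To be called, a CpG needed group means 20 or more points apart as well as an adjusted p below 0.05. Of the 307 chosen CpGs, 280 could be tested. Samples of one group are separate lines, and CpGs of one cluster share reads and are not independent.

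For 2i/L p10 against S/L p10, 9 of the 280 were called lower and none higher, whereas 26.7% of all CpGs tested were called lower. The calls were 2 of 5 on chromosome 2, none of 224 in the block and 7 of 51 in the other clusters. In S/L p10, 243 CpGs of the block had a median level of 11.5%. A CpG at or below that level could not fall by the difference required for a call. The absence of calls in the block therefore does not show that its levels held. This limit also enters the comparison of the 280 with all CpGs tested. With the adjusted p alone 18 of the 280 were lower, beside 29.7% of all CpGs. Of the 115 tested CpGs outside the set with a median of 100 or more reads, 54.8% were called lower and 74.8% passed with the adjusted p alone. The largest differences were at chr11:3093351-3093486. There CpG 3093358 fell to 26.5% ± 2.24 from 63.5% ± 3.11 (SD over 3 libraries each; limma adjusted p = 0.00247). CpG 3093351 fell from 65.3% ± 2.15 to 28.4% ± 2.21 (limma adjusted p = 0.00278) and CpG 3093460 from 65.7% ± 2.49 to 31.8% ± 0.514 (limma adjusted p = 0.00852).

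For 2i/L p20 against S/L p20, 12 of the 280 were called lower, beside 25.2% of all CpGs tested. All 5 chromosome 2 CpGs were among them, with limma adjusted p from 8.05e-05 to 0.000437. None of the 224 CpGs of the block was called, where the mean S/L p20 level was 8.96% ± 2.07 (SD, n = 3). Of its CpGs, 243 had at most 16.0% in S/L p20 and could not fall by 20 points. With the adjusted p alone 182 of the 280 (65.0%) were lower, 149 of them in the block, beside 26.9% of all CpGs and 75.7% of the 115 deeper CpGs outside the set. The share is not above that of these deeper CpGs, and the part of depth in the count was not tested. CpG 125951974 on chromosome 8 fell to 37.8% ± 20.3 from 90.5% ± 1.5 (SD over 3 libraries each; limma adjusted p = 4.81e-06). CpG 98506429 on chromosome 2 fell from 77.9% ± 0.557 to 31.6% ± 12.3 (limma adjusted p = 0.000155), and CpG 3093460 on chromosome 11 from 64.5% ± 0.912 to 20.9% ± 6.16 (limma adjusted p = 0.000315).

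After the return, p23 was compared with 2i/L p20, and 8 of the 280 were called higher and none lower, beside 28.6% of all CpGs called higher. With the adjusted p alone 207 (73.9%) were higher, 172 of them in the block, beside 30.9% of all CpGs and 78.3% of the 115 deeper CpGs outside the set. The largest rises were at CpG 3093460, to 58.4% ± 3.90 from 20.9% ± 6.16 (SD over 3 libraries each; limma adjusted p = 0.00118), at CpG 125951974, from 37.8% ± 20.3 to 75.0% ± 4.78 (limma adjusted p = 0.00126), and at CpG 3093358, from 17.5% ± 4.37 to 50.5% ± 5.29 (limma adjusted p = 0.002). On chromosome 2, 2 of 5 CpGs were called.

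Against S/L p20, the 4 other groups gave almost no calls among the chosen CpGs, and these comparisons share the same 3 S/L libraries. The rule of 20 points left little room for calls. In S/L p20, 243 CpGs of the block had at most 16.0% and could not fall by 20 points. On chromosome 2, all CpGs except 98506429 (77.9%) had 84.2% to 90.5% and could not rise by 20 points. The few calls therefore do not show that levels held. For p23 none of the 280 was called in limma, beside 0.142% of all CpGs in either direction, and none passed with the adjusted p alone, beside 0.207%. At an unadjusted p under 0.05 there were 10 (3.57%, beside 10.2% of all CpGs). These included all 5 chromosome 2 CpGs, each lower in p23, with limma adjusted p from 0.0990 to 0.410. For p30 none was called, beside 0.929%, 4 passed with the adjusted p alone, beside 1.59%, and 17 at an unadjusted p under 0.05 (6.07%, beside 16.6% of all CpGs). For a2i/L p20 none was called, beside 1.89%, 7 passed with the adjusted p alone, beside 2.98%, and 16 at an unadjusted p under 0.05 (5.71%, beside 19.0% of all CpGs).

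For PKCi/L p20, 1 CpG was called lower, beside 1.52% of all CpGs called in either direction, 2 passed with the adjusted p alone, beside 2.67%, and 51 at an unadjusted p under 0.05 (18.2%, near the 18.8% of all CpGs). The called CpG was 39982545 in the block, at 8.31% ± 1.32 (SD, n = 2) against 30.9% ± 7.44 (SD, n = 3) in S/L p20 (limma adjusted p = 0.0224). It is 1 of the 4 highest CpGs of the block in S/L p20. The others of these 4 differed far less. CpGs 39982551, 39982553 and 39982567 had 20.5%, 19.0% and 19.8% in PKCi/L p20 against 24.8%, 23.2% and 21.6% in S/L p20. In a2i/L p20 and p30, of the same depth pattern as PKCi/L p20, CpG 39982545 had 16.4% and 16.8%. CpG 39982551 had 40.5% and 26.5% there. Its depth was 2001 reads or more in the PKCi/L libraries and as low as 315 in S/L p20, and the part of this in the call was not tested. The call was lost when either PKCi/L library, or S/L p20 of J-35 or of J-37, was left out, with 0 called in each case.

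The share of methylated reads over a whole library is a common summary, and the chosen CpGs enter it with their full depth. Leaving them out lowered the share over all autosomal CpGs in S/L p20 by 1.02 points, the largest shift of a group mean. It went from 31.9% to 31.7% with S/L and from 14.5% to 13.7% with 2i/L at p10. At p20 it went from 29.4% to 28.4% with S/L and from 12.1% to 11.2% with 2i/L. It went from 31.0% to 30.3% in p23, from 28.9% to 28.8% in p30, from 25.5% to 25.8% in PKCi/L p20 and from 27.88% to 27.93% in a2i/L p20. The 2i/L keratinocytes went from 32.1% to 31.7% and the wild-type library from 32.83% to 32.81%.

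These small net shifts hid opposite parts. In S/L p20, leaving out the chromosome 2 CpGs alone lowered the share by 1.80 points, and leaving out the block alone raised it by 0.711 points. In a2i/L p20 the chromosome 2 CpGs alone changed the share by -0.579 points, since they took fewer of the reads there. In 2i/L p20 they changed it by -1.20 points and the block by 0.256 points.

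**Figure D5:**
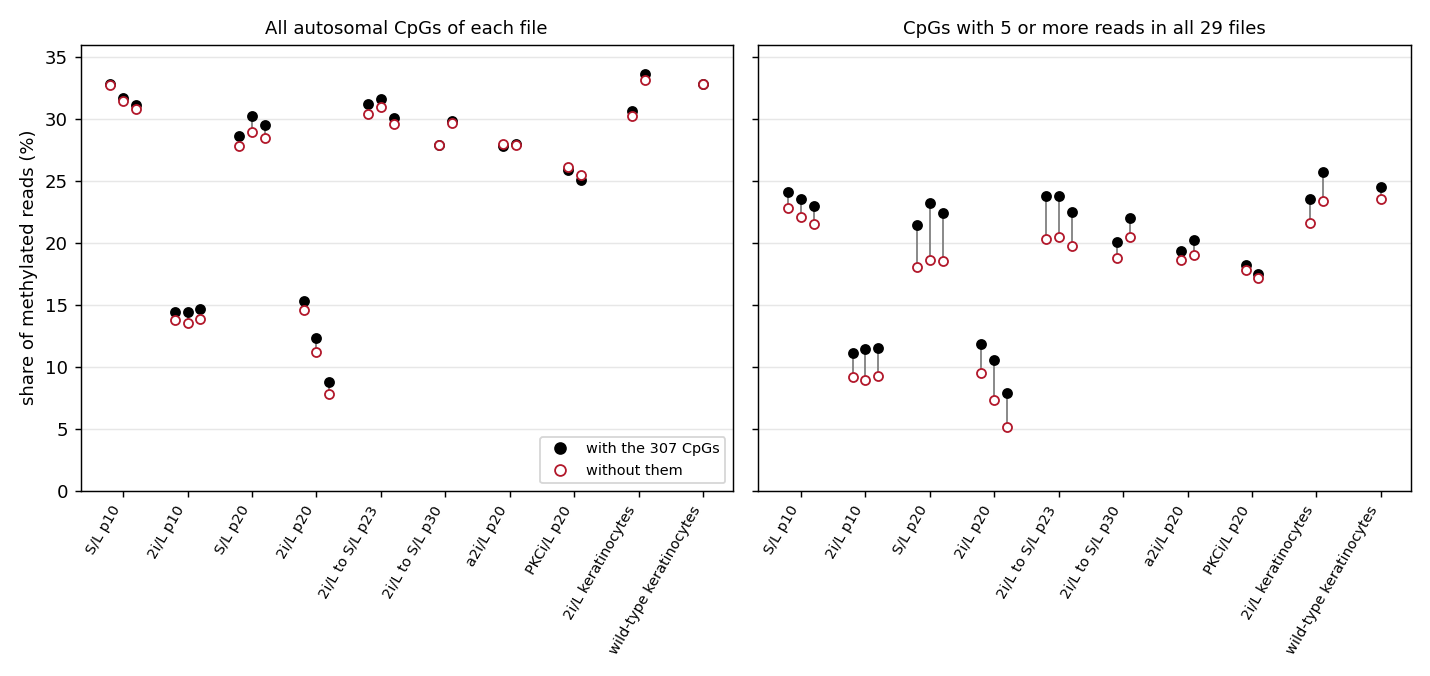
Share of methylated reads (%) in each library with the chosen CpGs (filled) and without them (open), over all autosomal CpGs (left) and over CpGs with 5 or more reads in all 29 files (right). The shifts are larger on the right, where the S/L p20 mean goes from 22.4% to 18.4%.

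Over the CpGs with at least 5 reads in all 29 files the chosen CpGs weighed more, because fewer other reads remained. They took 16.2% of these reads at p23, 15.4% with S/L and 14.9% with 2i/L at p20, 12.0% at p30, and 11.9% and 10.7% with PKCi/L and a2i/L at p20. Without them the share went from 22.4% to 18.4% in S/L p20 and from 23.4% to 20.2% in p23. It went from 17.8% to 17.5% in PKCi/L p20 and from 19.8% to 18.8% in a2i/L p20. In S/L p10 it went from 23.6% to 22.1% and in 2i/L p10 from 11.3% to 9.15%.

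Differences between groups moved too. For 2i/L less S/L the difference over all autosomal CpGs was -17.4 points at p10 and -17.3 at p20 with the chosen CpGs, and -18.0 and -17.2 without. Exact two-sided permutation tests gave p = 0.1 in all 4 cases, the smallest value that 3 against 3 libraries allow. The groups did not overlap with or without these CpGs. The move at p20 has no stable direction: it turned from 0.087 to -0.0304 points without S/L p20 of J-35 and to -0.0276 without 2i/L p20 of J-34.

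For a2i/L p20 the difference over all autosomal CpGs shrank from -1.55 to -0.478 points (exact permutation p = 0.2 and 0.4, 2 against 3 libraries, smallest possible 0.1). Groups did not overlap with the chosen CpGs and overlapped without them. Over the shared CpGs it went from -2.60 to 0.391 points, a change of sign (exact permutation p = 0.1 and 0.4). For PKCi/L p20 it went from -3.94 to -2.58 points over all autosomal CpGs and from -4.54 to -0.941 over the shared ones (exact permutation p = 0.1 in all 4 cases). The PKCi/L libraries stayed below S/L p20 in each.

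For p30 the difference went from -0.570 to 0.401 points over all autosomal CpGs (exact permutation p = 0.6 both times) and from -1.36 to 1.22 over the shared ones (exact permutation p = 0.3 and 0.1). For p23 it went from 1.55 to 1.94 points (exact permutation p = 0.2 and 0.1) and over the shared CpGs from 0.975 to 1.75 (exact permutation p = 0.2 and 0.1). The sign for p30 thus turned when the 307 CpGs were left out. It also turned when only the 5 chromosome 2 CpGs were left out, to 0.510 points over all autosomal CpGs and 1.32 over the shared ones. Over all autosomal CpGs the p30 and S/L p20 libraries overlapped each time. Depth at these 5 CpGs cannot be told apart from the groups for p30, a2i/L p20 and PKCi/L p20, as given above. The 6 comparisons rest on few libraries, and no p among them can fall under 0.05 by design, so none passes an adjustment.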

How the data were processed

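RRBS methylation was deposited as 1 list of CpGs per library (29 libraries, 15 groups by the labels). The submitters' processing notes name BSMAP 2.89 and build mm9; read filters and bisulfite conversion were not given in the sources at hand. Conversion and amplification were done on pools of 12 barcoded reactions, per the labels' protocols. The deposited field of methylated over all reads was used; the deposited score equals that share times 1000 with decimals dropped, in all 29 files.

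The chosen CpGs, groupings and lists were set with earlier results of these data known. Named are the clusters with most CpGs, the 5 deepest CpGs, those at the threshold, and per comparison and direction the 3 called CpGs with the largest difference and no overlap. Clusters join chosen CpGs up to 1000 bp apart. A cluster's level is its methylated reads over all its reads.

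Single CpGs were fitted in limma 3.58.1 (R 4.3.3), with trend, to the 21 libraries of 8 groups, group as the only factor. A count model was not used, because the counts sit in a text field recorded under another unit. On simulated data with real depths, the fit missed nearly all of a moderate change placed at shallow CpGs and recovered most of a larger change at deeper CpGs, least for p30, with no direction wrong; the second setting was chosen after the first. Same-numbered libraries are the same line: their deviations from group means correlated with median r = 0.00238 over 64 pairs, against -0.00154 over 128 pairs of different lines. Shares were compared by exact permutation tests. Alternatives were other depth rules, gaps, offsets, thresholds, line as a block and leaving out each library. Reads carry no molecular identifiers and CpGs of one cluster share reads, so intervals cover at most counting error. Replicates are separate lines whose spread may be technical. Library totals ran from 8359802 to 22433006 reads. Python 3.11.15 was used.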

Additional observations from a re-analysis of the deposited data

Results flagged for a closer look

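The chromosome 2 CpGs moved in opposite directions from S/L p20 of the same line in different media. The mean change was -35.3 points in 2i/L p20 (3 lines) but 6.61 in PKCi/L p20 and 6.12 in a2i/L p20 (2 lines each). The 2i/L mean differed from that of a2i/L by -41.4 points and from that of PKCi/L by -41.9 points. These means are not over the same lines. J-37 has no a2i/L or PKCi/L library, and its change in 2i/L p20 was the largest, -46.8 points. The falls in J-34 and J-35 were smaller, so both differences are larger than over the shared lines. Every library of one medium moved one way and every library of the other the opposite way. In the chromosome 17 block the mean change was -4.79 points in 2i/L p20, -2.65 in PKCi/L p20 and 2.87 in a2i/L p20. Here 2i/L differed from a2i/L by -7.66 points, and a2i/L from PKCi/L by 5.52 points. In the other 11 clusters 2i/L (-5.00 points) differed from a2i/L (3.79 points) by -8.79 points. The 2i/L means in the block and in these clusters also include J-37. None of these differences was tested. All a2i/L and PKCi/L libraries belong to the set with few reads at the first chromosome 2 cluster, and the part of that was not tested. The groups hold 2 or 3 libraries, too few to look for a library that stands apart.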

How the results depend on the processing

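Of 209 values recomputed for 31 results, 153 were counted as the same, 52 as moved and 4 as reversed. Of these, 18 were group differences in the share of methylated reads without the chosen CpGs. There, changes of size were not counted as moves, and 16 were counted as the same because their sign held. Over shared CpGs, for example, the difference from S/L p20 went from -2.58 to -0.941 points for PKCi/L p20. For p30 it went from 0.401 to 1.22 points. Calls of lower CpGs in 2i/L p10 went from 9 to 18 with the adjusted p alone, 2 for CpGs with 1000 reads in 15 files and 1 for those with 500 in all 29. In 2i/L p20 they went from 12 to 182, 5 and 4. For p23 against 2i/L p20 they went from 8 to 207, 2 and 2, and to 13 at a difference of 10 points. With the adjusted p alone p30, a2i/L p20 and PKCi/L p20 had 4, 7 and 2. For PKCi/L p20 the count was 0 with 1000 reads, with all 29 files and with an offset of 0.5. Leaving out a library gave 7 to 7, 10 to 12, 5 to 10 (5 without 2i/L p20 of J-37) and, for PKCi/L p20, 0 to 1. With the line as a replicate block the counts were 8, 12, 8 and 1 for the comparisons with calls, and the block changed no other call.

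The change of the group difference on leaving out the chosen CpGs became, over CpGs shared by all 29 files, -0.766 (2i/L p10), 1.20 (2i/L p20), 0.778 (p23), 2.58 (p30), 2.99 (a2i/L p20) and 3.60 points (PKCi/L p20), and -0.439 for 2i/L p10 with reads scaled to at most 500 per CpG. Leaving out a library, it ran from -0.0304 (without S/L p20 of J-35, reversed) to 0.190 for 2i/L p20, where it also reversed to -0.0276 without 2i/L p20 of J-34, from -0.708 to -0.570 for 2i/L p10, 0.266 to 0.487 for p23, 0.853 to 1.07 for p30, 0.952 to 1.19 for a2i/L p20 and 1.24 to 1.46 for PKCi/L p20. The difference for p30 reversed to -0.570 with the CpGs kept, and that for a2i/L p20 to 0.391 over shared CpGs. These 2 settings and the adjusted p alone were chosen after seeing the data. Clusters numbered 9 with 1000 reads, 9 with all 29 files (196 CpGs) and 30 at a gap of 100 bp.

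The level over all chosen CpGs depends on the weights. As a share of reads it was 35.7% and 43.1% (S/L at p10 and p20), 30.2% and 25.2% (2i/L at p10 and p20), 26.9% (a2i/L p20), 19.7% (PKCi/L p20), 39.0% (p23), 29.9% (p30), 40.9% (2i/L keratinocytes) and 33.3% (wild-type keratinocytes). With clusters weighted equally it was 30.2%, 24.1%, 23.3%, 12.6%, 26.8%, 22.6%, 21.3%, 24.1%, 38.2% and 22.97% in the same order. These moves come from the weights. The cause of the other moves was not tested.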
